A study of Mus musculus with 6 samples.

Results

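The genes described here are 46 listed genes of basement membrane and fibrillar matrix. They cover laminin chains, type IV collagen, nidogens and proteoglycans, fibrillar collagens, type VI and XIV collagens, fibronectin and vitronectin, elastic fibre and matricellular genes. They were taken by name, and array probes were assigned to them through the transcript accession printed on the array, without use of any signal. Of the 46 genes, 45 had a named probe, 63 probes in all, and 44 genes could be measured, among 16947 genes measured on the whole array. Col6a3 had no named probe, and the signal of Col5a2 did not rise above background in any testis, so it was not tested.

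RNA of whole testis was compared between 3 TAp73 KO mice and 3 wild type mice, all male C57BL/6J aged 10 weeks, with each mouse's RNA on its own 1-colour Agilent array. TAp73 denotes those products of Trp73, a gene of the p53 family, that carry the transactivation domain. The labels give the genotype as a TAp73 knockout and do not describe the allele further. The levels below are scaled signals, meaning the background-subtracted spot signal as a percentage of the same array's 75th percentile, and a difference is KO minus wild type on the log2 scale. A gene read by several probes stands at its brightest probe with a value on every array. A difference was called when limma's p-value, adjusted by Benjamini-Hochberg over all 31801 tested probes, was under 0.05.

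Basement membranes are thin sheets of laminin and type IV collagen, tied together by nidogen and by the heparan sulfate proteoglycan perlecan. A laminin molecule joins 1 alpha, 1 beta and 1 gamma chain, and the chains assemble inside the cell before secretion. In the testis a basement membrane surrounds each seminiferous tubule, laid down by Sertoli cells inside it and peritubular myoid cells outside it, and a layer of fibrillar collagen lies between and around the myoid cells. Because whole tissue was measured, fewer cells of a type and less RNA per cell cannot be told apart.

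The Trp73 probe with the largest difference gave signals of 17.2, 4.81 and 5.17 in the 3 KO testes, against 605, 548 and 587 in the 3 wild type testes. This probe was well above background on 1 of 3 KO arrays, another on 2 of 3 and the remaining probe on 3 of 3, and all were so on every wild type array. Every KO array lay below every wild type array on each of the 3 probes. The probe above background on all arrays had a difference of -0.99. Which of the probes lie in the deleted part was not tested. The authors' value table carried the opposite labels, since all 6 of its columns matched best with a scanner file of the other group, and the scanner files' labels were used. The share of probes well above background was lowest in wild type replicate 1 (74.4%) and highest in KO replicate 1 (84.4%). It was 79.4 to 81.3% on the other arrays. KO replicate 1 stood apart, with a score of -66.2 on the first principal component, where the other arrays had -4.9 to 30.8. The arrays lay on 2 slides, slide 1 with KO replicates 1 and 2 and wild type replicates 1 and 3, slide 2 with KO replicate 3 and wild type replicate 2.

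Of the 44 measured matrix genes, 3 were lower in KO testes (6.82%) and 0 were higher. The background share over all 16947 measured genes was 3.53% lower and 0.218% higher, and over the 31801 tested probes it was 2.64% lower and 0.248% higher. The 3 genes were Lamb2, Tnxb and Thbs1, and the other 41 did not pass the threshold. At an unadjusted limma p under 0.05, 13 were lower (29.5%) and 3 were higher (6.82%), against backgrounds of 13.6% and 12%. In 12 genes (27.3%) every KO array lay below every wild type array, and in 3 (6.82%) every KO array lay above. The backgrounds were 16% and 19.2%. The sign was negative in 33 of 44 genes (75%), against 42.2% of all measured genes. The median difference of the 44 genes was -0.18, beside 0.05 for all measured genes. Without KO replicate 1, Lamb2 and Tnxb were called and the median was -0.15; without wild type replicate 1, Lamb2 and Lamc1 were called and the median was -0.27. With any of the other 4 arrays left out, or with normexp background correction, 0 members were called, with 6 to 11 lower at an unadjusted limma p under 0.05.

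**Figure D1:**
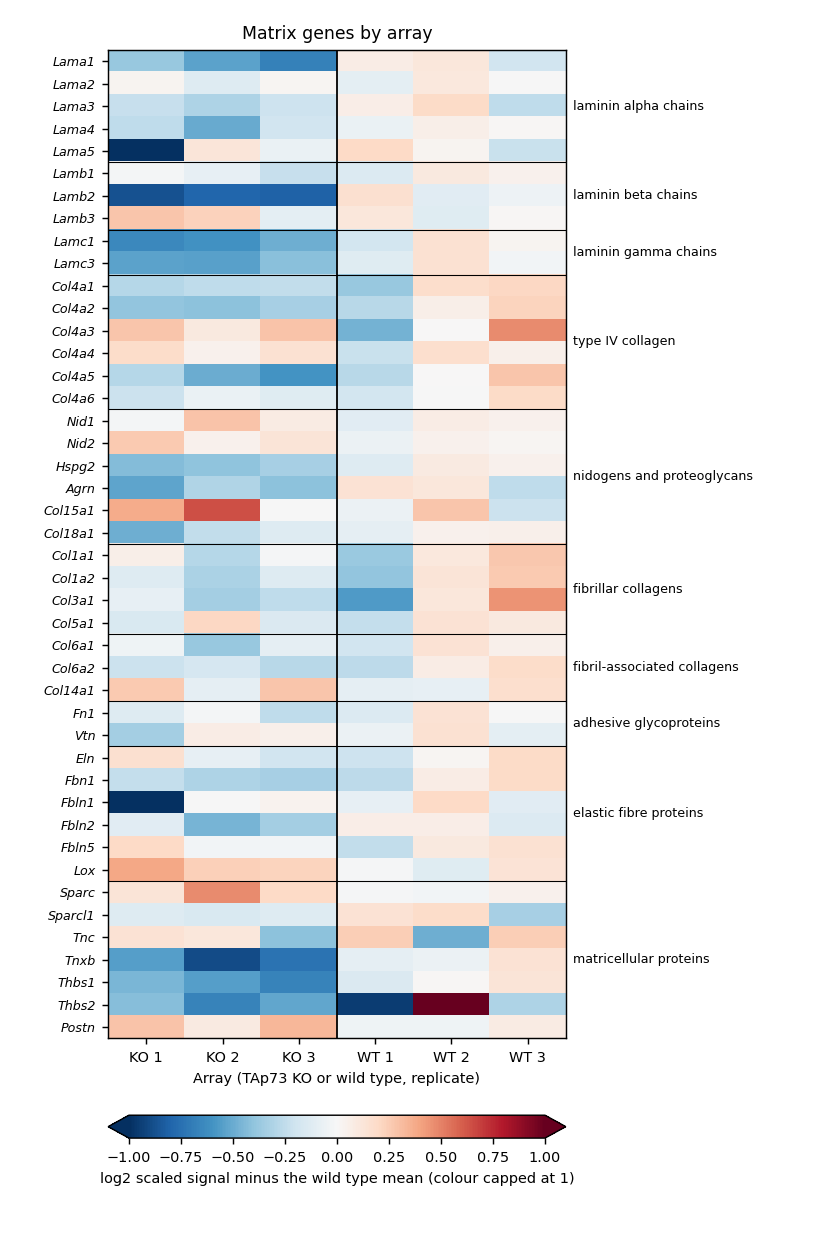
Log2 scaled signal of the 44 measured matrix genes in each KO array (left) and wild type array (right), relative to the gene's wild type mean, with colour capped at 1 and genes grouped by role. Lamb2 is blue in all 3 KO arrays, whereas Lama5 and Fbln1 are dark blue in KO replicate 1 alone.

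The laminin chains held the largest called difference. Lamb2, the beta2 chain found in many basement membranes including those of kidney glomeruli and neuromuscular junctions, had scaled signals of 37.9, 40.0 and 39.6% in KO testes, against 77.7, 64.2 and 66.9% in wild type testes. The 3 KO arrays lay close together and well below every wild type array. The geometric means were 39.2% in KO and 69.4% in wild type testes, 1.77-fold lower in KO testes, with a difference of -0.82 (95% interval -1.05 to -0.60, adjusted p = 0.0142 by limma). The difference was -0.89 on slide 1, with 2 arrays per group, and -0.70 in the slide 2 pair. With 1 array left out the adjusted p by limma ranged from 0.0299 to 0.069, and it passed without KO replicate 1 or wild type replicate 1 and missed the threshold without each of the others.

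The bases before the annotated start of 3 members are printed because Lamb2 had the largest called difference, and because Hspg2 and Sparc, described below, were each read by 2 probes that differed and carry motif letters. They are RefSeq windows of GRCm38.p6, 5′ to 3′ on the gene's strand and ending at the annotated start, at chr9:108479612-108479846 on the plus strand for Lamb2, chr4:137468553-137468750 on the plus strand for Hspg2 and chr11:55420081-55420330 on the minus strand for Sparc. Capitals mark the GC box GGGCGG in Hspg2 and a p53 family half-site in Sparc.
Lamb2: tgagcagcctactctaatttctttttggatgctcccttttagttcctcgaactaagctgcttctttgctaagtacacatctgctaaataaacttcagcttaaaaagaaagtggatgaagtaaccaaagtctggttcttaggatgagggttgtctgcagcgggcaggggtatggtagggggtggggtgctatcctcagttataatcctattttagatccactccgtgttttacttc
Hspg2: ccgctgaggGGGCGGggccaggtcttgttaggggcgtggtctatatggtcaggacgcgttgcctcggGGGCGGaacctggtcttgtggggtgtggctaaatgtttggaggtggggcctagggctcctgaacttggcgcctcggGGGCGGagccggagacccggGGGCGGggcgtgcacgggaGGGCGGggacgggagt
Sparc: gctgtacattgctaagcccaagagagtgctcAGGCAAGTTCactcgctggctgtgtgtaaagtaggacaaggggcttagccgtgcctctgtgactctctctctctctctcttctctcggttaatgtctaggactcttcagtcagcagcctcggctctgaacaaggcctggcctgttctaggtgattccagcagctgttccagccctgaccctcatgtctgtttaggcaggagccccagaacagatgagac

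The motifs searched, on both strands, were the GC box with the letters GGGCGG, the CCAAT box with the letters CCAAT, the TATA box with the letters TATAAA and the p53 family half-site, which is named only. The half-site overlaps none of the others in these 3 windows. Hspg2 held the GC box 5 times, Sparc held the half-site once, 219 bases before the start, and Lamb2 held none of the 4 motifs. Over 32851 windows of 250 bases, the GC box stood in 32.7%, the CCAAT box in 33.8%, the TATA box in 12.4% and the half-site in 7.13%. RefSeq gave a window for 31 of the members, 39 windows in all, of which 20 held the GC box, 9 the CCAAT box, 6 the TATA box and 2 held the half-site. Hspg2 and Sparc were picked partly for holding motif letters, so the matches in their windows follow from that choice. The other member window with the half-site was that of Nid1, which is not printed. All these matches describe letters and do not show binding.

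The other beta chains gave different values. Lamb1, the beta1 chain, had 65.7, 62.8 and 56.7% in KO testes, against 60.6, 71.3 and 68.5% in wild type testes, and Lamb3, the beta3 chain of laminin in epithelia such as skin, had 46.2, 44.8 and 35.6% in KO testes, against 41.3, 35.1 and 38.6% in wild type testes. In both genes the groups overlapped, and the differences of -0.11 and 0.13 did not pass the threshold.

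Both gamma chains lay just outside the threshold. Lamc1, the gamma1 chain of most laminins, had 33.0, 33.8 and 36.8% in KO testes, against 45.3, 57.4 and 52.7% in wild type testes (difference -0.58, interval -0.84 to -0.32, adjusted p = 0.0513 by limma). Lamc3, the gamma3 chain, had 55.7, 55.5 and 60.4% in KO testes, against 74.1, 89.8 and 79.0% in wild type testes (difference -0.50, interval -0.73 to -0.27, adjusted p = 0.0547 by limma). In both genes every KO array lay below every wild type array.

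None of the 5 alpha chains was called. All 5 had a negative difference, against 42.2% of all measured genes. At an unadjusted limma p under 0.05, 2 were lower (40%), against 13.6% of all measured genes. Lama1, the alpha1 chain, had 82.4, 74.0 and 66.9% in KO testes, against 113, 116 and 93.8% in wild type testes (difference -0.53, adjusted p = 0.0805 by limma). Lama4, the alpha4 chain known from vessels, had 10.2, 8.56 and 10.7% in KO testes, against 11.6, 12.7 and 12.2% in wild type testes (difference -0.31, adjusted p = 0.158 by limma). Neither gene's groups overlapped. Lama5, the alpha5 chain, had 11.4, 44.7 and 39.2% in KO testes, against 47.2, 42.0 and 35.2% in wild type testes, so that its difference of -0.60 rested on KO replicate 1 and was 0.02 without it. Lama2 and Lama3 had differences of -0.03 and -0.25. A dimmer Lama2 probe had -0.15, and a dimmer Lama3 probe had -0.55 (adjusted p = 0.0556 by limma). Over all 10 laminin chains the median difference was -0.41, beside 0.05 for all measured genes. Of the 10, 9 were negative (90%), against 42.2% of all measured genes, and Lama2 and Lama5 were among the 9.

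**Figure D2:**
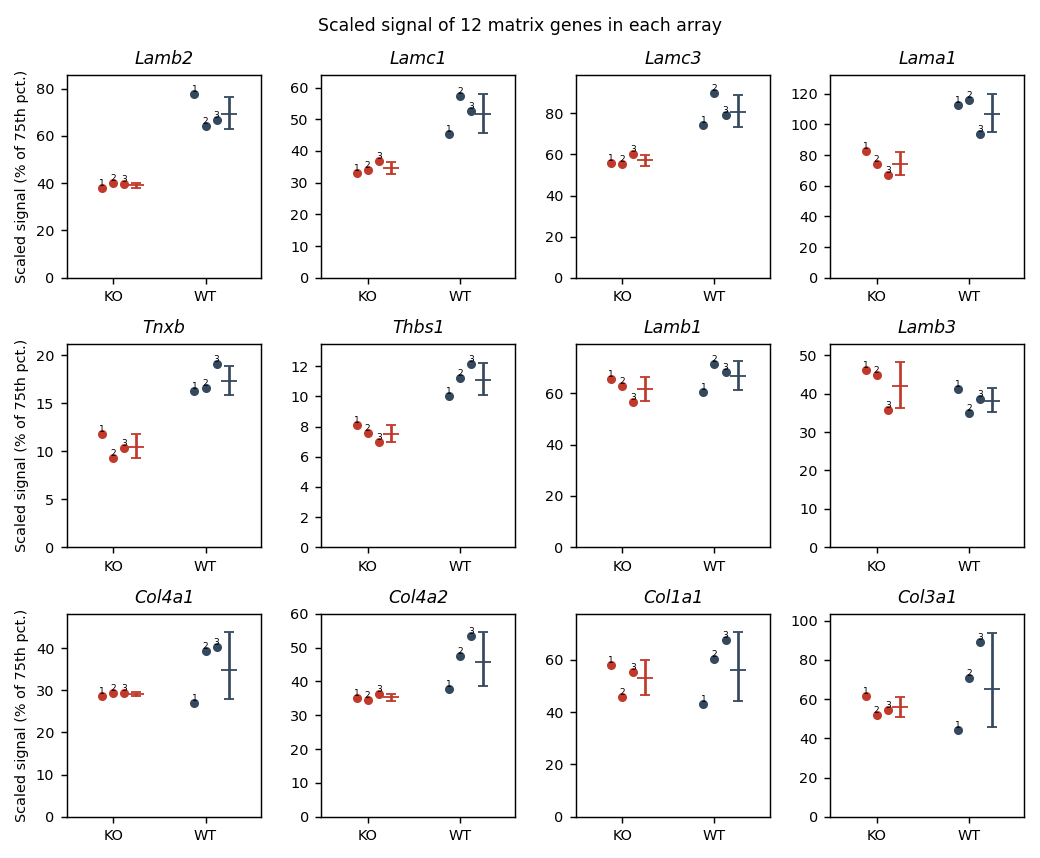
Scaled signal, as a percentage of the array's 75th percentile, of 12 matrix genes in each KO array (red) and wild type array (blue), with the replicate number above each point and the geometric mean with 1 SD on the log2 scale beside it. Lamb2, Lamc1, Lamc3, Lama1, Tnxb and Thbs1 show KO arrays below all wild type arrays, whereas wild type replicate 1 is the lowest array for Col1a1, Col3a1 and Col4a1.

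Type IV collagen, the network-forming collagen of basement membranes, is made from 6 chains whose genes lie in head to head pairs. In GRCm38.p6, Col4a1 and Col4a2 share 85 bases at their annotated starts, Col4a3 and Col4a4 share 114, and 1274 bases lie between Col4a5 and Col4a6. Col4a1 had 28.6, 29.3 and 29.4% in KO testes, against 26.9, 39.3 and 40.2% in wild type testes (difference -0.26, adjusted p = 0.357 by limma). Its partner Col4a2 had 35.0, 34.5 and 36.4% in KO testes, against 37.9, 47.7 and 53.4% in wild type testes (difference -0.38, adjusted p = 0.175 by limma). For both genes wild type replicate 1 was the lowest wild type array, and without it the differences were -0.45 and -0.52. Col4a5 had 10.9, 9.45 and 8.79% in KO testes, against 11.0, 13.3 and 16.1% in wild type testes (difference -0.46, adjusted p = 0.174 by limma), and its groups met almost exactly at 10.9 and 11.0%. Col4a6, Col4a4 and Col4a3 had differences of -0.13, 0.13 and 0.22, which were -0.23, 0.01 and -0.02 without wild type replicate 1, and Col4a3 had 0.45 without wild type replicate 3. A dimmer Col4a6 probe had 0.07, and 2 dimmer Col4a4 probes had -0.01 and 0.01. None of the 6 chains was called.

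Among the linkers and proteoglycans, none of the 6 genes was called. Hspg2, which encodes perlecan, had 53.5, 54.7 and 57.2% in KO testes, against 65.8, 76.6 and 74.5% in wild type testes (difference -0.39, adjusted p = 0.0731 by limma). A dimmer Hspg2 probe had a difference of 0.12, so that the 2 probes disagreed in sign. Agrn, which encodes the proteoglycan agrin, had 33.9, 39.6 and 36.7% in KO testes, against 54.0, 52.8 and 40.9% in wild type testes. Its difference was -0.41 (adjusted p = 0.147 by limma). A dimmer Agrn probe, well above background on 3 of 3 KO and 2 of 3 wild type arrays, had -0.06. Agrn lies on chromosome 4, 49 measured genes from Trp73, and Hspg2 lies 184 from it, and a part of linkage to the targeted gene in these values was not tested. Col18a1, the precursor of endostatin, had -0.29 and -0.40 by its 2 probes (adjusted p = 0.2 and 0.079 by limma). The nidogens, which link laminin to type IV collagen, had 0.12 for Nid1 and 0.14 for Nid2. Of 2 dimmer Nid1 probes, 1 had 0.45 (adjusted p = 0.149 by limma), with every KO array above every wild type array, and 1 had 1.47 through KO replicate 2, and 0.54 without it. Col15a1, near background, had 0.34.

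**Figure D3:**
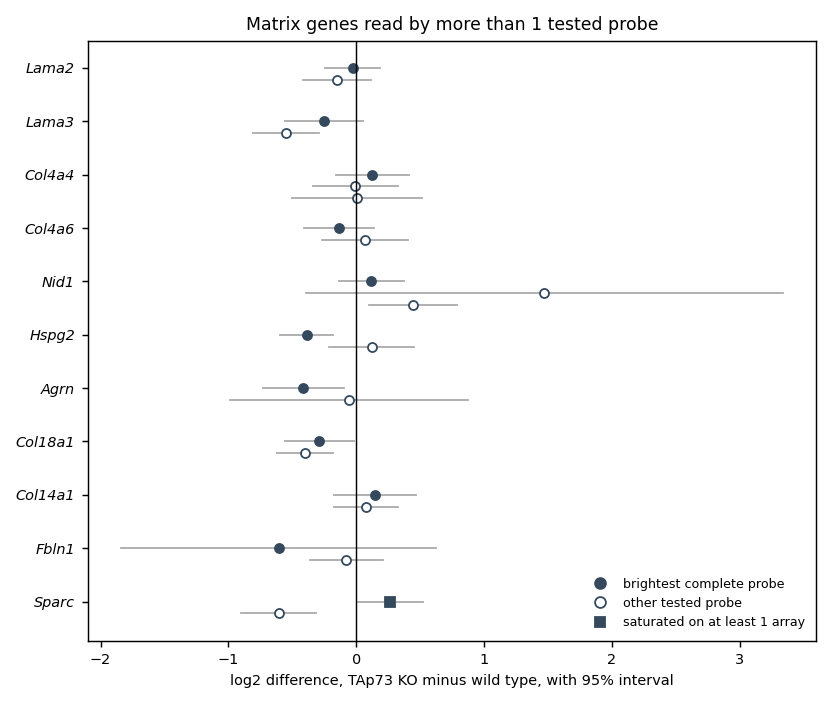
Log2 difference, KO minus wild type, with its 95% interval for each tested probe of the 11 matrix genes read by more than 1 probe, filled for the brightest complete probe and square where saturated. Probes lie on opposite sides of 0 for Hspg2, Sparc, Col4a6 and Col4a4, the last with values close to 0.

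The fibrillar collagens, which form the tensile fibres of connective tissue, showed no called difference. Col1a1 had 58.2, 46 and 55.5% in KO testes, against 43.2, 60.2 and 67.4% in wild type testes, and Col1a2, the other chain of type I collagen, had 216, 190 and 216% in KO testes, against 180, 258 and 283% in wild type testes. Col3a1, of type III collagen, had 61.7, 51.7 and 54.7% in KO testes, against 44.1, 70.7 and 89.2% in wild type testes. In all 3 genes wild type replicate 1 lay below every KO array and wild type replicates 2 and 3 lay above every KO array, so that the groups overlapped. The differences were -0.08, -0.19 and -0.22, and without wild type replicate 1 they were -0.27, -0.39 and -0.51. Wild type replicate 1 was the lowest wild type array for 29 of the 44 members, and the same share over all measured genes was not counted. This array also had the lowest share of probes well above background (74.4%). Col5a1 had a difference of -0.03. Of the type VI and XIV collagen genes, Col6a1, Col6a2 and Col14a1 had -0.17, -0.22 and 0.15, and a dimmer Col14a1 probe had 0.07. The adhesive glycoproteins Fn1, which encodes fibronectin, and Vtn, which encodes vitronectin, had -0.14 and -0.07.

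**Figure D4:**
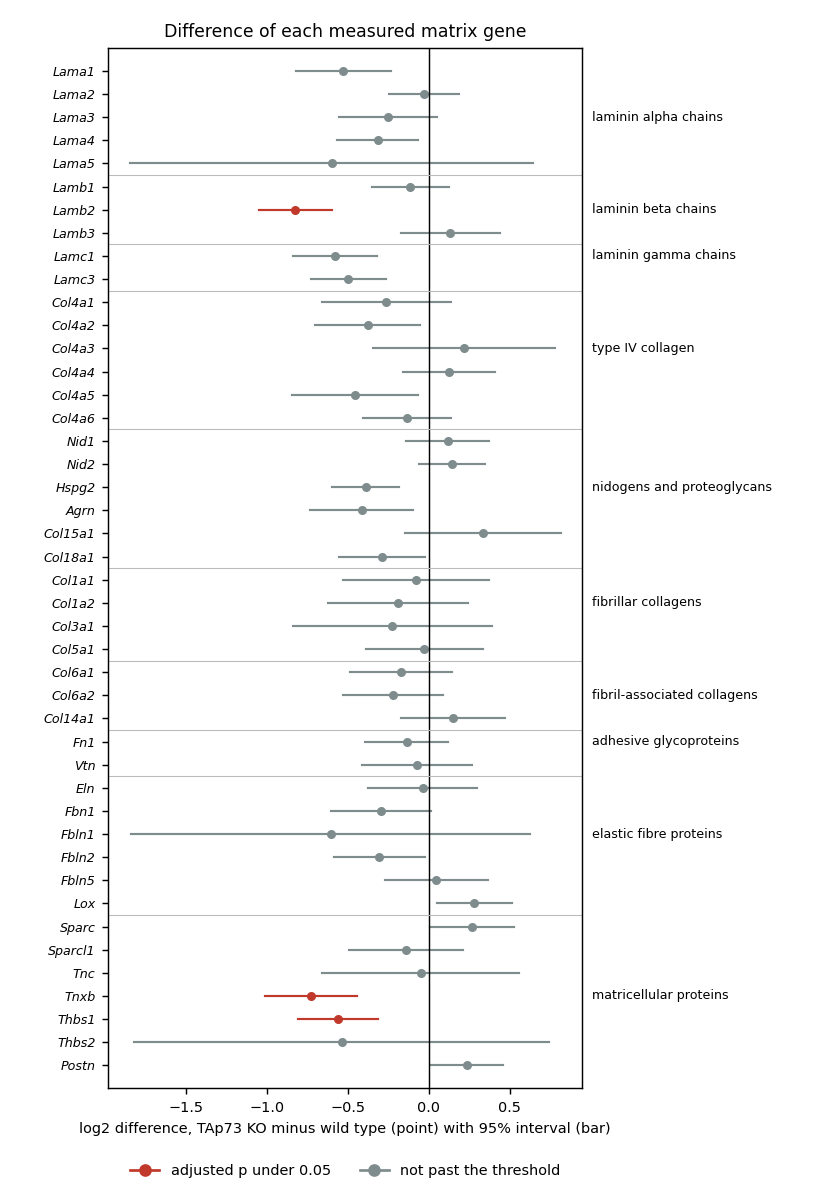
Log2 difference, KO minus wild type, with its 95% interval for each of the 44 measured matrix genes, grouped by role, with the 3 called genes in red. The intervals of Lama5, Fbln1 and Thbs2 are the widest, each with 1 array far from the others of its group.

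No elastic fibre gene was called. Lox, the lysyl oxidase that cross-links collagen and elastin, had 5.61, 5.08 and 5.01% in KO testes, against 4.27, 3.94 and 4.71% in wild type testes (difference 0.28, adjusted p = 0.164 by limma), with every KO array above every wild type array. Fbn1, the fibrillin that forms microfibrils, and Fbln2 had -0.29 and -0.31, and Eln, which encodes elastin, and Fbln5 had -0.04 and 0.05. Fbln1 had 2.67, 9.68 and 9.95% in KO testes, against 9.14, 11.1 and 8.96% in wild type testes. Its difference of -0.61 was 0.02 without KO replicate 1. A dimmer Fbln1 probe had -0.08, with 4.60, 4.72 and 4.84% in KO testes, and did not show the drop in KO replicate 1.

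The matricellular group, proteins that modulate contact between cells and matrix, held the other called genes. Tnxb, which encodes tenascin-X, a protein that organises collagen fibrils, had 11.8, 9.28 and 10.4% in KO testes, against 16.3, 16.6 and 19.1% in wild type testes. It was 1.66-fold lower in KO testes (difference -0.73, interval -1.01 to -0.44, adjusted p = 0.0355 by limma). Thbs1, which encodes thrombospondin-1, an activator of latent TGF-beta, had 8.10, 7.59 and 6.97% in KO testes, against 10.0, 11.2 and 12.1% in wild type testes. It was 1.47-fold lower (difference -0.56, interval -0.81 to -0.31, adjusted p = 0.0489 by limma). In both genes the groups did not overlap, and the differences in slide 1 and the slide 2 pair were -0.75 and -0.68 for Tnxb and -0.49 and -0.69 for Thbs1. With the slide as a block the adjusted p by limma was 0.081 for Tnxb and 0.0971 for Thbs1. With 1 array left out it was 0.0443 to 0.132 for Tnxb, passing only without KO replicate 1, and 0.0617 to 0.179 for Thbs1.

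Sparc, a collagen-binding protein, gave no single value. Its brighter probe was saturated on 3 of 3 KO arrays and 2 of 3 wild type arrays, so no fold is given from it, although it is 1 of the 3 genes counted as higher at an unadjusted p above. Its other probe, not saturated, had 285, 270 and 260% in KO testes, against 353, 421 and 474% in wild type testes (difference -0.61, adjusted p = 0.0607 by limma). Without probes saturated on any array, the median of the members was -0.21. Postn, which encodes periostin, had 0.24, Sparcl1 and Tnc had -0.14 and -0.05, and Thbs2 had -0.54 with 3.26% in wild type replicate 2 against 0.707 and 1.10% in the others, and 0.09 without that array.

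**Figure D5:**
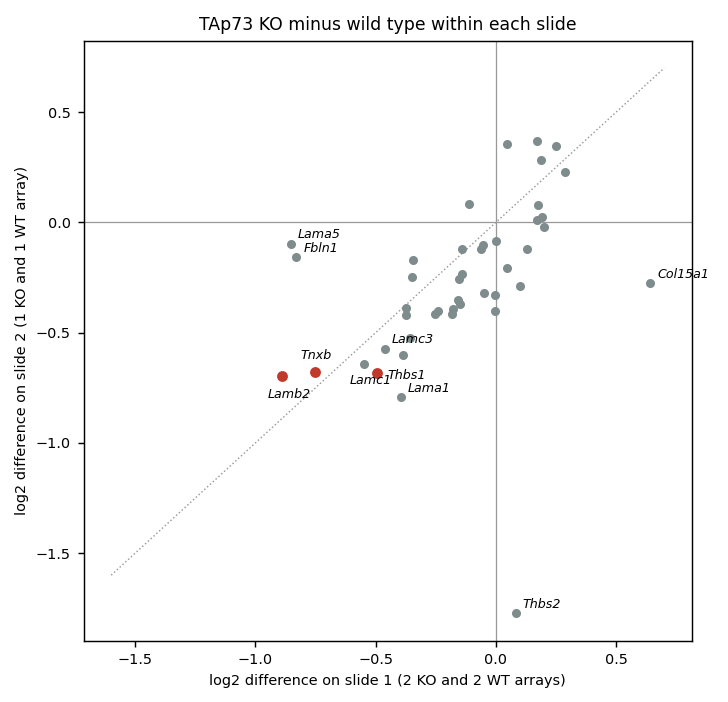
Log2 difference of each measured matrix gene within slide 1 (2 KO and 2 wild type arrays, horizontal) and in the slide 2 pair (1 KO and 1 wild type array, vertical), with the called genes in red and equality dotted. The difference was negative on both slides for 28 genes, positive on both for 8 and of opposite sign for 8. The same shares over all measured genes were not counted.

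The other genes of the pathway were read from lists of 77 matrix companion genes, of which 70 were measured, with a median of -0.17. Of the 70, 7 were lower in KO testes (10%) and 0 higher, against 3.53% and 0.218% of all measured genes. At an unadjusted limma p under 0.05, 23 were lower (32.9%) and 3 higher (4.29%), against 13.6% and 12% of all measured genes. With the slide as a block or with normexp 0 companions were called. With 1 array left out, 1 was called without KO replicate 1, 2 without wild type replicate 1 and 0 without each of the other 4 arrays. Of 14 basement membrane companions 1 was lower, Ntn4, a netrin that binds laminin gamma chains, at 1.95, 2.43 and 2.51% in KO testes, against 5.39, 4.27 and 4.12% in wild type testes (difference -0.999, adjusted p = 0.0278 by limma). In sign 6 of the 14 were negative (42.9%) and 8 positive, with a median of 0.05, beside 42.2% negative of all measured genes. Of 27 fibril and elastic fibre companions 3 were lower, and 16 had a negative sign (59.3%), with a median of -0.14. The largest difference among the 3 called genes was that of Ltbp1, a binding protein of latent TGF-beta, at 9.57, 14.6 and 12.4% in KO testes, against 26.1, 28.8 and 32.4% in wild type testes (difference -1.27, adjusted p = 0.0211 by limma). The others were Efemp1 (-0.60) and Ltbp4 (-0.47). In each of these 4 genes every KO array lay below every wild type array.

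Of 29 genes of collagen processing and cross-linking 3 were lower (10.3%), and 25 had a negative sign (86.2%), against 3.53% and 42.2% of all measured genes. The 3 lower genes were Tgm2, Sulf2, a sulfatase that trims heparan sulfate (-0.58), and Plod2, a lysyl hydroxylase (-0.45). Tgm2, a transglutaminase that cross-links matrix proteins, had 117, 122 and 119% in KO testes, against 176, 210 and 205% in wild type testes. Its difference was -0.72 (adjusted p = 0.0182 by limma). The median of this list was -0.30.

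Markers of the cells that the tissue holds were read in the same way. The level of a list is its mean log2 scaled signal relative to wild type. For the counts below, 3.53% of all measured genes were called lower and 0.218% higher. At an unadjusted limma p under 0.05, 12% of all measured genes were higher. The Sertoli cell list lay at -0.60 to -0.43 in KO testes, against -0.03 to 0.03 in wild type testes, and 5 of its 15 measured genes were lower, Sox9, Gata1, Aard, Vim and Shbg. The stroma list lay at -0.35 to -0.30 in KO testes, against -0.05 to 0.05 in wild type testes, with 2 of 7 lower, Pdgfra and Dcn. The macrophage list lay at -0.50 to -0.35 in KO testes, against -0.24 to 0.16 in wild type testes, with 3 of 10 lower. Without Cd74, its gene of largest difference, the macrophage level was -0.44 to -0.27 in KO testes, against -0.26 to 0.20 in wild type testes. The groups then nearly met. The endothelial list lay at -0.33 to -0.25 in KO testes, against -0.04 to 0.03 in wild type testes, with 1 of 12 lower, Robo4. Without Robo4 the endothelial level was -0.11 to -0.02 in KO testes, against -0.07 to 0.05 in wild type testes, and the groups overlapped. Peritubular myoid genes lay at -0.14 to 0.05 in KO testes, against -0.21 to 0.12 in wild type testes, with 1 of 11 lower, and Leydig genes at -0.32 to -0.04 in KO testes, against -0.23 to 0.22 in wild type testes, with 1 of 9 lower. Germ cell genes lay at 0.04 to 0.20 in KO testes, against -0.07 to 0.08 in wild type testes, with 0 of 15 called and 6 higher at an unadjusted limma p under 0.05. Of the 15 germ cell genes, 7 stood on probes saturated on some array, 2 of the 6 among them. Without those 7 the level was 0.03 to 0.07 in KO testes, against -0.03 to 0.06 in wild type testes, and the groups overlapped. Epididymis and blood lists, of 4 measured genes each, had 0 called. The matrix genes lay at -0.21 to -0.18 in KO testes, against -0.14 to 0.09 in wild type testes. The part of these cell types in the matrix values was not tested.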

How the data were processed

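Spot intensities of whole testis RNA of 6 mice, 3 TAp73 KO and 3 wild type, were the starting point. Per the file headers, the authors' deposited scanner files come from Feature Extraction software and a design built on mm9. The deposited intensity column used is the background-subtracted processed signal. A deposited value table, also intensity, served as an alternative under its own labels, which oppose those of the scanner files. Control and outlier-marked spots were left out, spots were averaged per probe, log2 signals were scaled to the array's 75th percentile, and the 31801 probes well above background on at least 3 of 6 arrays, with at least 2 values per group, were tested with limma 3.58.1 (R 4.3.3), which was also tested on simulated data. Probes were named by accession through RefSeq GRCm38.p6, used for names, gene order and windows; 26055 of 39429 probes matched. The number of arrays limits the precision. The normexp alternative (offset 50) was planned on the mean signal, and the median signal was used instead.

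Every listed member is accounted for, with values in every array for called members, the 8 next by p, and Col4a1 and Col4a2; called companion genes are named by size, up to 4 per list. Sparc and the members resting on 1 array were chosen after their values were seen. The members and all lists were chosen with earlier results of these data known. Marker list levels without saturated probes, or without the gene of largest difference, were added after seeing the data.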

Additional observations from a re-analysis of the deposited data

How the results depend on the processing

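The difference of Lamb2 was negative under every alternative run on the scanner files, from -0.89 to -0.64, and its adjusted p by limma ranged from 0.00832 to 0.537; it was called in 10 of 17 tested alternatives, Tnxb in 5 and Thbs1 in 3, and Lamc1 and Lamc3, not called here, in 5 and 3. Leaving out 1 array gave Lamb2 an adjusted p of 0.0299 to 0.069, Tnxb 0.0443 to 0.132 and Thbs1 0.0617 to 0.179. Members lower numbered 0 to 2 when 1 array was left out: Lamb2 and Tnxb without KO replicate 1, Lamb2 and Lamc1 without wild type replicate 1, and 0 without any of the other 4 arrays, with 7 to 11 lower at an unadjusted limma p under 0.05. The median of the members was then -0.27 to -0.13, tested probes 116 to 420 lower and 7 to 28 higher, against 838 and 79 here, and companions 0 to 2 lower, against 7.

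By scaling, quantile normalization gave 217 tested probes higher. Median scaling gave 1 member lower and 143 probes higher. Normexp gave 0 members (6 lower at an unadjusted limma p under 0.05), 0 companions and 0 probes lower or higher. Its median was -0.025 for the members and 0.22 for all tested probes. The members' median less that of all tested probes was -0.24 with normexp and in the main fit. Over the alternatives run on the scanner files it ranged from -0.32, without wild type replicate 1, to -0.18, with normexp and quantile normalization. Normexp with quantile normalization gave 1 member, 3 companions and 405 probes lower. Without the filter on dim probes there were 1 member, 1 companion and 349 probes lower and 13 probes higher. With probes above background on all arrays, 5 of 42 members were lower. In that fit 1109 of 29028 tested probes were lower, against 838 of 31801 in the main fit, and 165 were higher. The mean over a gene's probes also gave 5 members lower, and the share over all genes in that fit is not given here.

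With the slide as a block, 1 member (Lamb2), 0 companions and 299 probes were lower and 15 probes higher. Slide 1 alone gave 0 members (6 lower at an unadjusted limma p under 0.05), 0 companions and 0 probes in either direction, from 2 arrays a group. The slide 2 pair had a median of -0.27. With the replicate number as a block, 0 members (12 lower at an unadjusted limma p under 0.05) and 0 companions were called. Of the tested probes, 9 were then lower and 1 higher. Deviations of same-numbered arrays from their group means correlated at -0.03, -0.08 and -0.09, so no shared variation was seen. Whether the numbers pair the mice cannot be read from these values. With the labels that the value table carries, the direction turned: the members' median was 0.18, with 0 members lower and 4 higher, 0 companions lower and 9 higher, and 217 probes lower and 877 higher. Apart from the turned labels, the cause of these changes was not tested.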
